A study of Mus musculus with 16 samples.

Results

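Neutrophils were followed in whole-liver RNA through 10 genes that these cells are known for, S100a8, S100a9, Ly6g, Mpo, Elane, Camp, Ngp, Retnlg, Csf3r and Mmp9. The genes were chosen by name, with earlier results of these data known, and all 10 were found among the 25719 genes of the deposited table. Their transcripts were scarce in every group. Ly6g had no read in any of the 16 mice, 5 further genes (Mpo, Camp, Ngp, Elane and Retnlg) had at most 3 reads in more than 8 of the 16 mice, and only S100a8, S100a9 and Csf3r were abundant enough to be tested. None of these 3 was called different between diets or genotypes.

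Neutrophils are short-lived granulocytes that are made in the bone marrow and enter inflamed tissue from the blood. As they mature they fill their granules in a fixed order, first with the primary granule proteins myeloperoxidase and elastase, then with secondary granule proteins such as cathelicidin, and last with gelatinase. The genes of the primary granules are transcribed in marrow precursors and are silenced before the cell leaves the marrow, whereas S100a8, S100a9, Csf3r and Retnlg are still transcribed in mature cells. Neutrophils are a recognised part of the infiltrate in steatohepatitis.

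Livers came from male mice, 8 to 12 weeks old when put on the diets, either C57BL6J wild-type (WT) mice or Klrk1-/- mice, which lack the activating receptor NKG2D in every cell because the deletion is in the germline. They were fed a normal chow diet (NCD) or SSD, a steatosis and steatohepatitis diet rich in fat, fructose and cholesterol, for 3 weeks. There were 4 WT mice on NCD (numbered 1, 2, 3 and 5), 5 WT mice on SSD, 4 Klrk1-/- mice on NCD and 3 Klrk1-/- mice on SSD. The comparisons ask whether the diet changes the liver early on, and whether the loss of NKG2D changes that response.

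Between 19892025 and 28936707 single reads per library fell on genes. The values are normalized counts, in which the reads of a library are divided by a single factor, and 1 read was worth 0.664 to 1.30 normalized counts. A gene with 3 reads or fewer in a mouse is called at the floor here, which lies between 1.99 and 3.91 normalized counts. Klrk1, the deleted gene, gave 20.1 to 71.1 normalized counts in the WT mice and 0.966 to 8.71 in the Klrk1-/- mice, so the libraries follow their genotype labels. One library stood apart. Mouse 1 of the SSD-fed WT group had the highest value of its group for 7 of the 9 neutrophil genes with a read there, and results that rest on it are given with and without it. Whole-liver RNA cannot tell fewer neutrophils from less RNA per neutrophil.

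The 10 genes together held 2525 reads over all 16 mice, of which 2227 (88.2%) belonged to S100a8, S100a9 and Csf3r. They made up 3.42 to 15.5 RPM (reads per 1e6 reads on genes) of a library. The median was 6.17 in NCD-fed WT mice, 6.79 in SSD-fed WT mice, 5.49 in NCD-fed Klrk1-/- mice and 6.82 in SSD-fed Klrk1-/- mice. The ranges of the 4 groups overlapped, and the highest value, 15.5, was that of SSD-fed WT mouse 1.

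Levels of different genes were compared per kilobase of the deposited gene length, over all 16 mice. S100a9 was highest with 54.5 ± 23.7 normalized counts per kilobase (SD, n = 16), followed by S100a8 with 43.4 ± 24.7 and Csf3r with 40.8 ± 13.3. These 3 levels did not differ by more than the larger SD of each neighbouring pair. A step of 34.4 normalized counts per kilobase separated Csf3r from Mmp9, which had 6.36 ± 2.26, and this was the only step in the order that exceeded the spread. Below Mmp9 came Retnlg with 5.19 ± 3.40, Elane with 2.89 ± 2.52, Camp with 1.95 ± 2.55, Ngp with 1.40 ± 2.44 and Mpo with 0.668 ± 0.891 normalized counts per kilobase, and Ly6g was at 0. The plot of levels per kilobase shows the same split in each of the 4 groups.

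**Figure D1:**
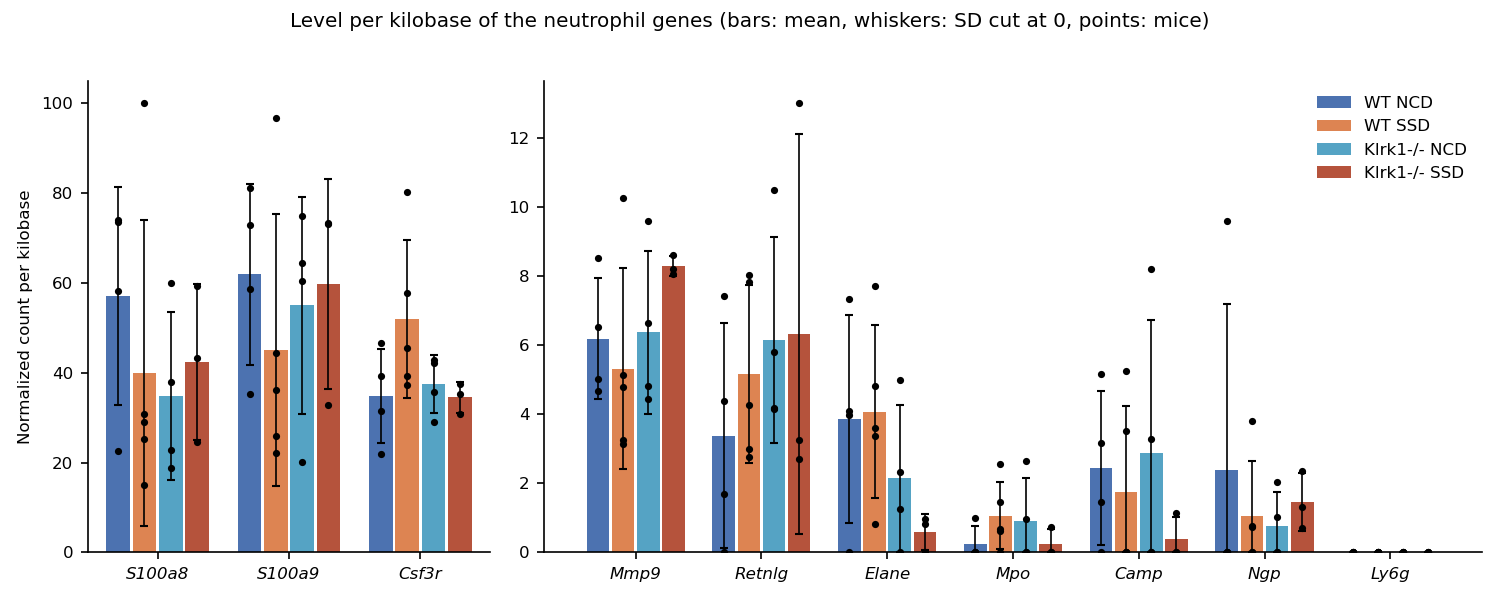
Normalized count per kilobase of gene length (vertical axes, which differ between the panels) for the 10 neutrophil genes in WT and Klrk1-/- mice on NCD or SSD. Bars are means, whiskers are SDs cut at 0 and points are mice. S100a8, S100a9 and Csf3r sit far above the other 7 genes in every group, and Ly6g is at 0 throughout.

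S100a8 and S100a9 encode the calcium-binding alarmins that pair to form calprotectin, the most abundant protein of the neutrophil cytosol, which monocytes also make. The genes lie close together on chromosome 3 of GRCm39, S100a8 (ENSMUSG00000056054) from 90576285 to 90577342 on the plus strand and S100a9 (ENSMUSG00000056071) from 90599939 to 90603028 on the minus strand, with 22596 bases between them. In NCD-fed WT mice S100a8 had 36.2, 11.1, 28.7 and 36.4 normalized counts (28.1 ± 11.9, SD, n = 4). In SSD-fed WT mice it had 49.2, 15.2, 14.3, 12.4 and 7.35 (19.7 ± 16.8, n = 5). Mouse 1 of the SSD group was the highest of all, and the other 4 SSD-fed mice lay at or below the middle of the NCD range. In Klrk1-/- mice S100a8 had 9.19, 18.7, 11.2 and 29.5 normalized counts on NCD (17.1 ± 9.20, n = 4) and 21.2, 12.05 and 29.1 on SSD (20.8 ± 8.56, n = 3), so these groups overlapped with each other and with both WT groups.

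S100a9 was spread over the mice in a similar way. It had 30.1, 18.1, 41.7 and 37.5 normalized counts in NCD-fed WT mice (31.9 ± 10.3, SD, n = 4) and 49.8, 18.6, 22.8, 13.3 and 11.4 in SSD-fed WT mice (23.2 ± 15.5, n = 5). It had 10.3, 38.6, 31.1 and 33.2 in NCD-fed Klrk1-/- mice (28.3 ± 12.4, n = 4) and 37.7, 16.9 and 37.7 in SSD-fed Klrk1-/- mice (30.7 ± 12.02, n = 3). The groups overlapped in every comparison, and again the highest mouse was SSD-fed WT mouse 1. The ratio of S100a9 to S100a8 in normalized counts was 0.833 to 2.78 (median 1.35) and was above 1 in 15 of the 16 mice.

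The promoters of the 3 testable genes are printed because S100a8 and S100a9 rose and fell together from mouse to mouse. They are from RefSeq on GRCm38.p6, a build other than that of the coordinates above, 250 bases before to 50 after the start of each gene, 5′ to 3′ on the strand of the gene: S100a8 at chr3:90668821-90669120 (plus strand), S100a9 at chr3:90695672-90695971 (minus strand) and Csf3r at chr4:126024409-126024708 (plus strand). Capitals mark AGGAAG or its reverse complement CTTCCT, the core that the myeloid factor PU.1 binds, and TATAAA on the strand of the gene, the letters of a TATA box.
S100a8: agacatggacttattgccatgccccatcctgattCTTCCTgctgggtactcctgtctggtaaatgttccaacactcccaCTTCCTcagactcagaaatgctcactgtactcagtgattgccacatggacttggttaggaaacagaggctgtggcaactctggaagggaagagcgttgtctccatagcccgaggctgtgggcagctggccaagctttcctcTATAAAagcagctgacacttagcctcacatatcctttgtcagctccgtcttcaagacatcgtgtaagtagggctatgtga
S100a9: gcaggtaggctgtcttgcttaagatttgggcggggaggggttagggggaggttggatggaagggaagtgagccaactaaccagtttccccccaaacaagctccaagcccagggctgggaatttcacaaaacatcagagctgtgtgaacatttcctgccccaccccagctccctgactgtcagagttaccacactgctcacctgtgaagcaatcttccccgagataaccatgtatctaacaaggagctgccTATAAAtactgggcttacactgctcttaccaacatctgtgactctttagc
Csf3r: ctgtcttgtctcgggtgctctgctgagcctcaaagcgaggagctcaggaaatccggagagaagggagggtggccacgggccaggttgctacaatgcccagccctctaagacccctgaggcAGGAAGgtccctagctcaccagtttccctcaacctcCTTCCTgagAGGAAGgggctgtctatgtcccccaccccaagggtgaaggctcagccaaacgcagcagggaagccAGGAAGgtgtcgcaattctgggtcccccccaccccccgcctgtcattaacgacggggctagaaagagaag

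Both S100 promoters held a TATAAA within these bases, upstream of the annotated start in S100a8 and right at it in S100a9, which 8.32% of the 32851 promoters of the table hold, and the Csf3r promoter held none. The PU.1 core occurred 2 times in the S100a8 promoter and 4 times in that of Csf3r, and not in that of S100a9. Of the 9 neutrophil genes with an entry in the table (Mmp9 had none), 6 held the PU.1 core on either strand (S100a8, Ly6g, Mpo, Elane, Camp and Csf3r), as did 35.4% of all promoters. A C/EBP-type TTGCNNAA on either strand, which is not capitalised, was present for 4 of the 9 (S100a9, Ly6g, Ngp and Retnlg) and for 10.8% of all promoters. In the 3 promoters printed no match overlaps another, and a match is a description of the sequence only.

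Csf3r encodes the receptor for granulocyte colony-stimulating factor, which drives the making and release of neutrophils and is also found on monocytes. It lies on chromosome 4 from 125918343 to 125938233 (ENSMUSG00000028859). It had the most reads of the 10 genes, 1419 over the 16 mice. NCD-fed WT mice had 65.1, 45.3, 80.8 and 96.004 normalized counts (71.8 ± 21.7, SD, n = 4), and SSD-fed WT mice had 165.4, 93.8, 77.1, 119.0 and 80.8 (107 ± 36.4, n = 5). Mice 1 and 4 of the SSD group exceeded every NCD-fed WT mouse, and the other 3 fell within the NCD range. Klrk1-/- mice had 59.7, 88.3, 87.1 and 73.8 normalized counts on NCD (77.2 ± 13.4, n = 4) and 77.3, 63.4 and 72.9 on SSD (71.2 ± 7.06, n = 3). The SSD-fed Klrk1-/- mice thus lay within the range of the NCD-fed Klrk1-/- mice. An antisense gene, Gm32908, overlaps Csf3r, and 1.26% of the 100-base windows of its transcripts also occur in a transcript of Gm32908 or of Csf1r-ps, so a small part of its reads could be split.

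Ly6g, on chromosome 15 from 75027089 to 75030975 (ENSMUSG00000022582), encodes the surface protein by which mouse neutrophils are told from monocytes in cell sorting. It was at 0 in each of the 16 mice, 0 of 381688844 reads on genes. A count of 0 allows at most 3 reads, or 0.104 to 0.151 RPM in a library, an upper limit that covers counting error only. None of the 1158 windows of 100 bases in its transcripts occurs in a transcript of another gene, which covers matches of whole windows only. Of the markers that define neutrophils, Ly6g was therefore not detected, S100a8, S100a9 and Csf3r were detected in all 16 mice, Retnlg was at the floor in 11 of 16 mice, and Cxcr2, the chemokine receptor of mature neutrophils, was at the floor in 7 of 16 mice with 4.66 ± 3.41 normalized counts (SD, n = 16).

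Retnlg, which encodes a resistin-like peptide of mature neutrophils (chromosome 16, 48692984 to 48694859, ENSMUSG00000022651), had 51 reads in all. Its levels were 0 to 4.41 normalized counts in NCD-fed WT mice, 1.63 to 4.76 in SSD-fed WT mice, 2.46 to 6.22 in NCD-fed Klrk1-/- mice and 1.61 to 7.71 in SSD-fed Klrk1-/- mice. All 4 groups overlapped. The highest mouse, SSD-fed Klrk1-/- mouse 3, had 9 reads.

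Mpo and Elane, the primary granule genes among the 10, were close to absent. Mpo encodes myeloperoxidase, the enzyme that makes hypochlorous acid (chromosome 11, 87684407 to 87695239, ENSMUSG00000009350), and had 15 reads over 16 mice. It was at 0 in 8 mice and at the floor in 15, and the exception was SSD-fed WT mouse 1 with 5 reads. An antisense gene, Gm11505, overlaps Mpo and shares 4.79% of its 100-base windows. Elane encodes neutrophil elastase (chromosome 10, 79722081 to 79724049, ENSMUSG00000020125) and had 46 reads. It had 7.24, 4.03, 3.91 and 0 normalized counts in NCD-fed WT mice, 3.32, 7.60, 4.76, 3.55 and 0.816 in SSD-fed WT mice, 2.30, 1.24, 0 and 4.92 in NCD-fed Klrk1-/- mice and 0.966, 0.803 and 0 in SSD-fed Klrk1-/- mice. The SSD-fed Klrk1-/- mice were all at the floor, with 2 reads between them against 24 in the 5 SSD-fed WT mice, but SSD-fed WT mouse 5 lay within their range.

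Of the secondary granule genes, Camp encodes the antimicrobial cathelicidin (chromosome 9, 109676447 to 109678685, ENSMUSG00000038357) and Ngp a cystatin-like granule protein (chromosome 9, 110248815 to 110252080, ENSMUSG00000032484). Camp had 23 reads over 16 mice, was at 0 in 8 mice and at the floor in 14, and its highest value was 6.22 normalized counts in NCD-fed Klrk1-/- mouse 3. Ngp had 27 reads, was at 0 in 7 mice and at the floor in 14. Of these 27 reads, 9 were from NCD-fed WT mouse 3 (11.7 normalized counts) and 7 from SSD-fed WT mouse 1 (4.65 normalized counts). Neither gene had a group that stood apart from another.

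Mmp9, gelatinase B of the tertiary granules, is also made by macrophages and stromal cells (chromosome 2, 164782700 to 164797770, ENSMUSG00000017737). It was above the floor in all 16 mice but under the mean of 10 normalized counts that testing required. Its values were 8.44, 6.04, 6.52 and 11.03 normalized counts in NCD-fed WT mice (8.01 ± 2.27, SD, n = 4) and 13.3, 4.22, 6.66, 6.22 and 4.08 in SSD-fed WT mice (6.89 ± 3.75, n = 5). They were 5.74, 6.22, 12.4 and 8.61 in NCD-fed Klrk1-/- mice (8.25 ± 3.06, n = 4) and 10.6, 10.4 and 11.1 in SSD-fed Klrk1-/- mice (10.7 ± 0.364, n = 3). The 3 SSD-fed Klrk1-/- mice were above 4 of the 5 SSD-fed WT mice and below SSD-fed WT mouse 1.

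**Figure D2:**
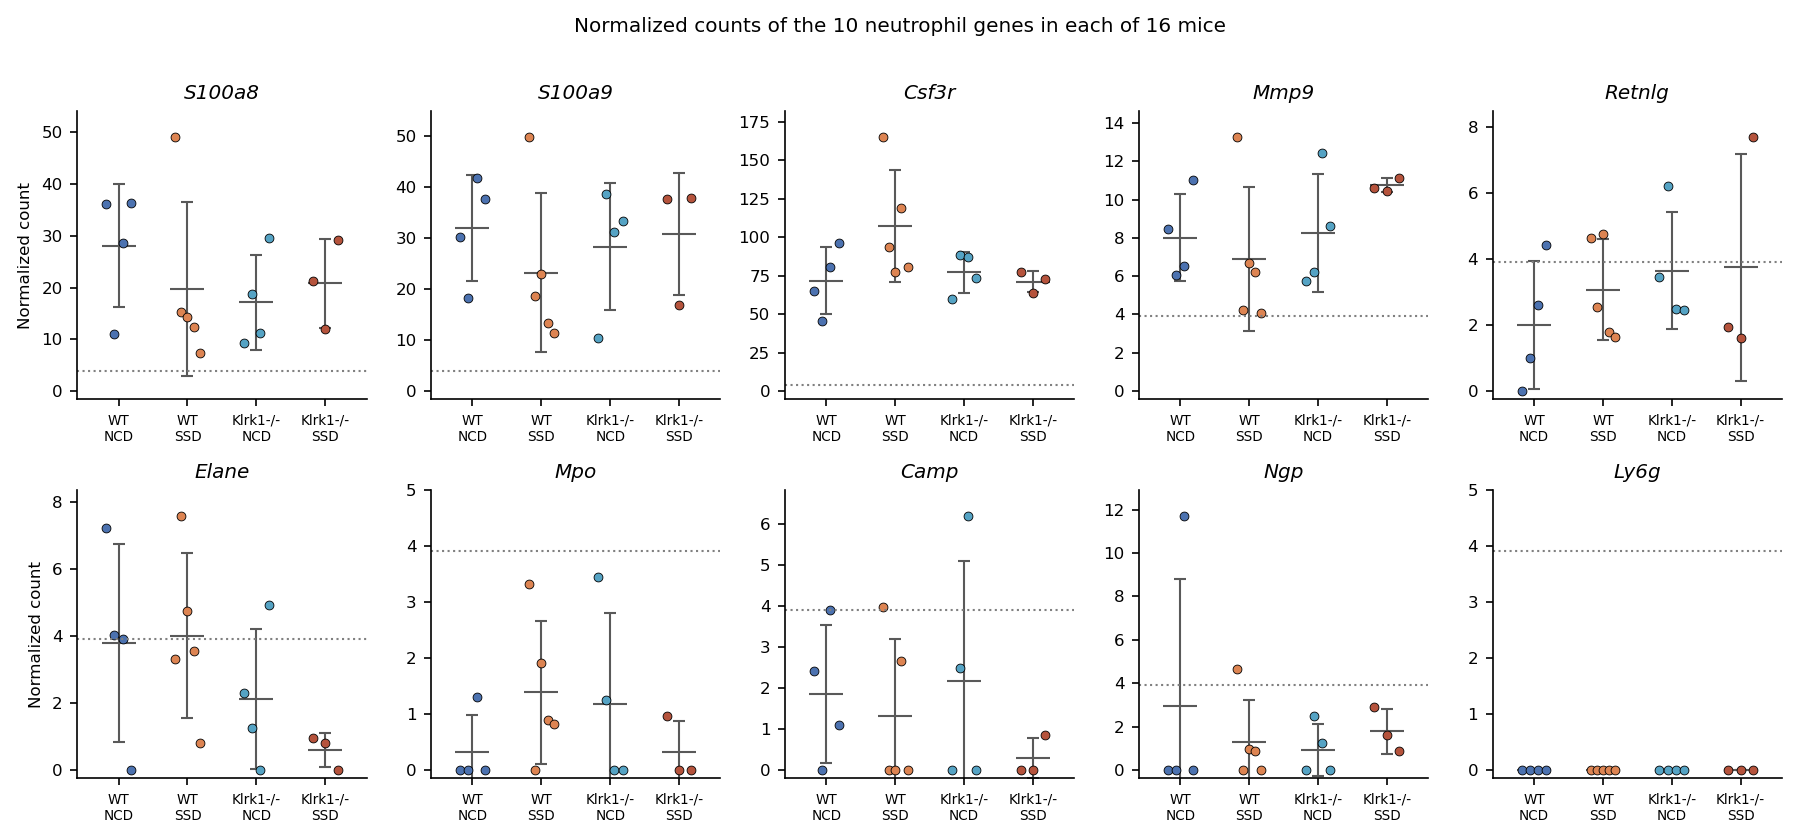
Normalized count (vertical axis, scaled for each gene) of the 10 neutrophil genes in each mouse of the 4 groups. Points are mice in the order of their numbers, horizontal marks are means, whiskers are SDs, and the dotted line is the highest floor of any library, 3.91 normalized counts. The groups overlap in every panel, and the topmost SSD-fed WT point of S100a8, S100a9, Csf3r, Mmp9 and Ngp is mouse 1.

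The effect of the diet in WT mice was tested with limma on log2(normalized count + 1) over all 13091 genes with a mean of at least 10 normalized counts. Genes were called at a Benjamini-Hochberg adjusted p under 0.05 and a fold change above 2, and the added 1 shrinks the fold change of a scarce transcript. None of the 3 neutrophil genes tested was called, against 9.01% of all genes tested. The log2 fold change on SSD was -0.65 for S100a8 (standard error 0.50, 95% interval -1.73 to 0.43, adjusted p = 0.333) and -0.57 for S100a9 (standard error 0.40, interval -1.45 to 0.30, adjusted p = 0.290). It was 0.57 for Csf3r (standard error 0.26, interval 0.00226 to 1.13, unadjusted p = 0.0492, adjusted p = 0.109). Csf3r was the only 1 of the 3 with an unadjusted p under 0.05, by limma and by DESeq2, whereas edgeR had none, and neither tool called any. None of the 3 neutrophil genes tested had WT diet groups without overlap, against 29.0% of all genes tested. Nor did the neutrophil genes under the minimum mean, which this share leaves out. A share over all genes says little about as few as 3.

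These values moved with single mice. Without SSD-fed WT mouse 1, the log2 fold change on SSD was -1.04 for S100a8 (adjusted p = 0.0574), -0.89 for S100a9 (adjusted p = 0.0473) and 0.40 for Csf3r (adjusted p = 0.196), and still none was called, since S100a9 stayed under the fold limit. Without NCD-fed mouse 2 they were -1.03 for S100a8, -0.81 for S100a9 and 0.37 for Csf3r, and without SSD-fed mouse 5 they were -0.39, -0.38 and 0.65. Scaling every library to the same total moved Csf3r to 0.91 (adjusted p = 0.0157), also short of the fold limit. That scaling moves the median of all genes by 0.34 in this comparison.

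In Klrk1-/- mice the intervals of all 3 genes included 0. The log2 fold change on SSD was 0.32 for S100a8 (interval -0.61 to 1.24, adjusted p = 0.609), 0.17 for S100a9 (interval -0.77 to 1.12, adjusted p = 0.795) and -0.10 for Csf3r (interval -0.49 to 0.28, adjusted p = 0.694). None of the 3 was called, against 5.46% of 12904 genes tested, and none had an unadjusted p under 0.05 by limma, edgeR or DESeq2. None of the 3 had groups without overlap, against 37.6% of all genes tested. The intervals leave room for a change of more than 2-fold in the S100 genes but not in Csf3r.

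Between the genotypes on SSD, the log2 fold change of Klrk1-/- against WT mice was 0.28 for S100a8 (interval -0.89 to 1.46, adjusted p = 0.785) and 0.50 for S100a9 (interval -0.53 to 1.53, adjusted p = 0.551). Csf3r was lower in Klrk1-/- mice by a log2 fold change of -0.53 (standard error 0.24, interval -1.06 to -7.7e-05, unadjusted p = 0.04997, adjusted p = 0.219). None of the 3 was called, against 1.15% of 13116 genes tested. Csf3r had an unadjusted p under 0.05 by limma, edgeR and DESeq2, and neither S100 gene did. Without SSD-fed WT mouse 1 the differences were 0.67 for S100a8 (adjusted p = 0.327), 0.82 for S100a9 (adjusted p = 0.207) and -0.36 for Csf3r (adjusted p = 0.255). S100a8 was 0.61 without Klrk1-/- mouse 2, 0.028 without WT mouse 5 and 0.0086 without Klrk1-/- mouse 3. S100a9 was 0.87 without Klrk1-/- mouse 2 and 0.31 without WT mouse 5, Klrk1-/- mouse 1 or Klrk1-/- mouse 3. None of the 3 genes tested had groups without overlap on SSD, against 17.9% of all genes tested.

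On NCD, the log2 fold change of Klrk1-/- against WT mice was -0.69 for S100a8 (interval -1.60 to 0.23, adjusted p = 0.291), -0.25 for S100a9 (interval -1.08 to 0.58, adjusted p = 0.692) and 0.14 for Csf3r (interval -0.34 to 0.62, adjusted p = 0.704). None was called, against 1.70% of 12845 genes tested, and none had groups without overlap, against 19.3%. No unadjusted p was under 0.05 by limma, edgeR or DESeq2. The difference between the diet effects of the 2 genotypes, tested as an interaction over all 16 mice, was 0.97 for S100a8 (interval -0.56 to 2.49, adjusted p = 0.506), 0.75 for S100a9 (interval -0.62 to 2.11, adjusted p = 0.572) and -0.67 for Csf3r (interval -1.40 to 0.06, adjusted p = 0.331). None was called, against 0.536% of 13068 genes tested, and none had an unadjusted p under 0.05 by these 3 tools. The 4 comparisons of 2 groups share mice, so they are not independent of each other.

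**Figure D3:**
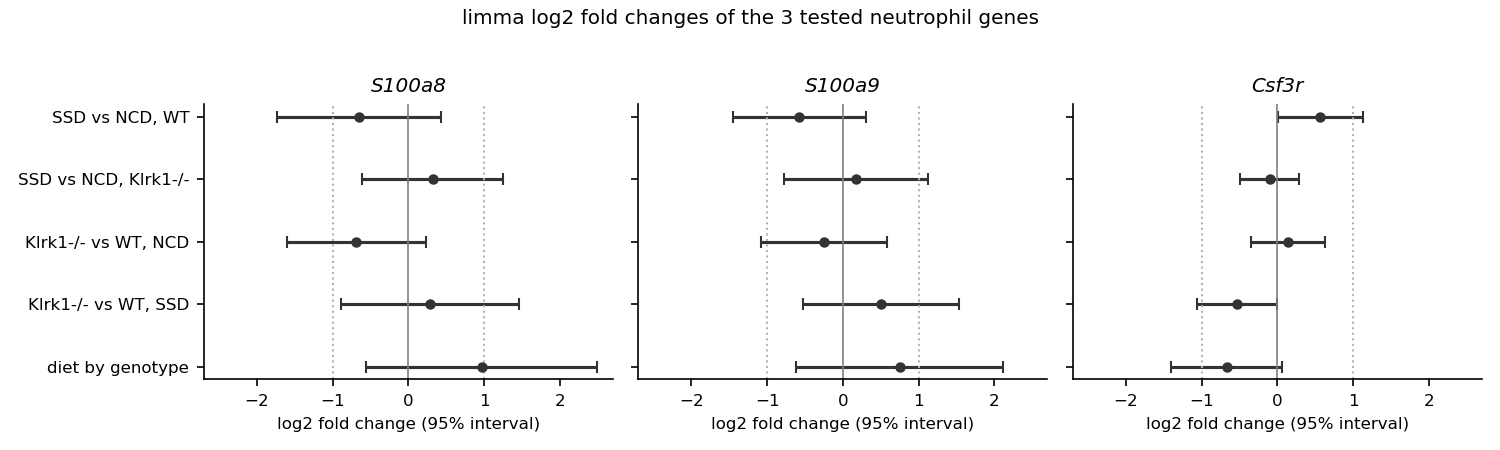
log2 fold change with its 95% interval (horizontal axis) from limma for S100a8, S100a9 and Csf3r in the 4 comparisons of 2 groups and in the diet by genotype interaction. Dotted lines mark a fold change of 2 in either direction. Each interval includes 0 except those of Csf3r for SSD against NCD in WT mice and for Klrk1-/- against WT mice on SSD, whose ends nearest 0 are 0.00226 and -7.7e-05.

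The 6 detected genes under the minimum mean (Mpo, Elane, Camp, Ngp, Retnlg and Mmp9) were fitted without a minimum. Over these 30 tests the adjusted p ranged from 0.123 to 0.987. A single test had an unadjusted p under 0.05, that of Elane in Klrk1-/- against WT mice on SSD (log2 fold change -1.55, interval -2.61 to -0.49, unadjusted p = 0.00826, adjusted p = 0.123). For Mmp9 in the same comparison the log2 fold change was 0.68 (interval -0.16 to 1.52, adjusted p = 0.383). No difference in Mpo, Camp or Ngp was detected, and Ly6g could not be fitted at all.

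From mouse to mouse S100a8 and S100a9 varied together. Pearson's r of their log2(normalized count + 1) over 16 mice was 0.84 (Spearman's rho 0.78), 0.77 without the 2 mice farthest from the median of S100a8, 0.82 without SSD-fed WT mouse 1 and 0.85 after the mean of each group was taken out. Csf3r was less like them, with r = 0.40 to S100a8 (rho 0.32) and 0.35 to S100a9 (rho 0.35). After the group means were taken out these were 0.73 each, and 0.57 and 0.60 when SSD-fed WT mouse 1 was also left out. These correlations are descriptions, since each pair of values shares a library and its depth.

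Of the 13068 genes with a mean of at least 10 normalized counts, S100a9 was the gene most like S100a8, followed by Nup37 (r = 0.83) and Mettl15 (r = 0.75). The genes most like S100a9 were Vti1a (r = 0.89), S100a8 (r = 0.84) and Mfsd12 (r = 0.74). Those most like Csf3r were Gm49339, Otulinl and Ccdc34 (r = 0.89 each), and S100a8 was only at rank 2467 for Csf3r. These values describe the same 16 libraries and carry no test.

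**Figure D4:**
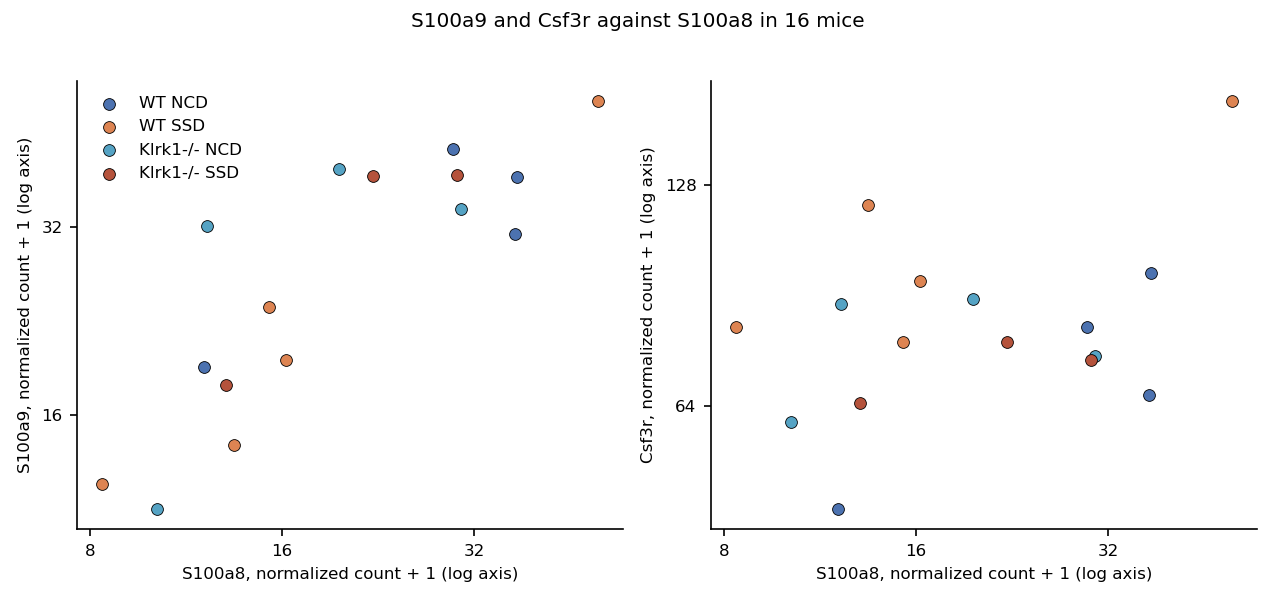
Normalized count + 1 of S100a9 (left) and Csf3r (right) against that of S100a8, all on log axes, with 1 point per mouse coloured by group. S100a9 tracks S100a8 across the 16 mice (r = 0.84), Csf3r less so (r = 0.40), and the SSD-fed WT mouse 1 is at the upper right of both panels.

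SSD-fed WT mouse 1 differed from its group in more than the neutrophil genes. Its 10 neutrophil genes summed to 297.6 normalized counts, 2.16 times the median of the other 4 mice (range 107.0 to 160.8). S100a8 was 3.68 times, S100a9 3.12 times, Mmp9 2.54 times and Csf3r 1.90 times the median of the others, whereas Elane was 0.799 times it. The list of other mature neutrophil genes, whose most abundant gene is Wfdc21, was lowest in this mouse (2511 normalized counts against 3773 to 6589, 0.483 times the median of the others), while 7 of its 14 genes with a read were highest there. The list of secondary and tertiary granule genes, whose most abundant gene is Hp, was highest in this mouse. It summed to 152452 normalized counts against 89056 to 115574 (1.48 times the median of the others), with 7 of 9 genes with a read highest there. Markers of monocytes and macrophages summed to 7159 normalized counts against 2204 to 3728 in the others, and 11 of 12 were highest in this mouse. Genes of the phagocyte oxidase and other genes shared by phagocytes summed to 9460 against 2676 to 4696, with all 11 highest in it. Kupffer cell markers were second highest in this mouse, and red cell genes were lowest (2246 against 3165 to 9861). Eosinophil, basophil and mast cell genes summed to 25.2 against 2.45 to 9.52. Its Ly6g was at 0 like that of the others. The part of macrophage RNA in the higher S100a8, S100a9, Csf3r and Mmp9 of this mouse was not tested.

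**Figure D5:**
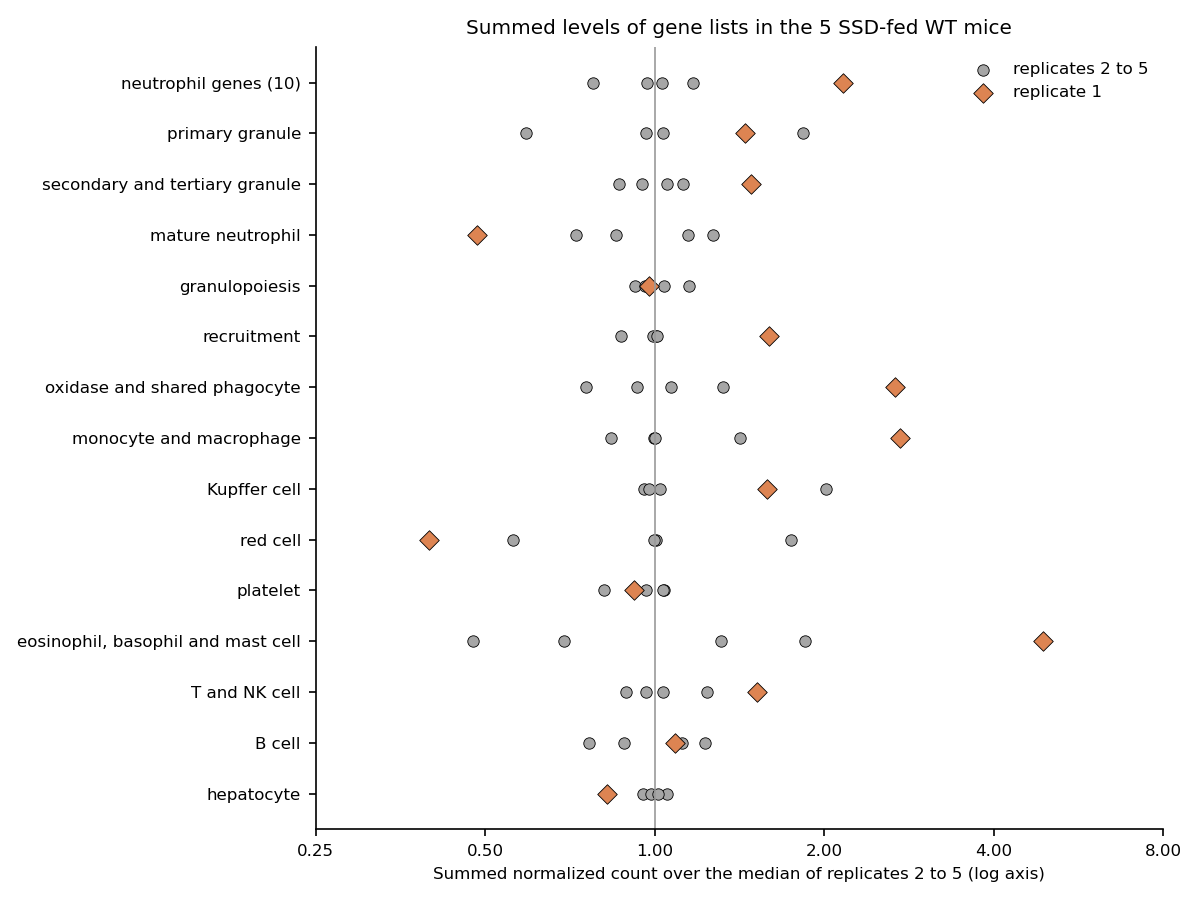
Summed normalized count of 15 gene lists in each SSD-fed WT mouse, divided by the median of mice 2 to 5 (horizontal log axis). Diamonds are mouse 1 and circles are mice 2 to 5. Mouse 1 lies to the right for the 10 neutrophil genes (2.16) and for the lists of phagocyte genes (2.67) and of monocyte and macrophage genes (2.72), and to the left for the mature neutrophil list (0.483) and for red cell genes (0.398). A sum is weighted towards the most abundant genes of its list, such as Wfdc21 for the mature neutrophil list. Of that list, 7 of the 14 genes with a read were highest in mouse 1.

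Other genes known from neutrophils were looked up in lists written for this purpose, of primary granules, of secondary and tertiary granules and of mature cells. Of their 31 genes in the table, 23 had a mean under 10 normalized counts, 19 were at the floor in at least 12 of the 16 mice and 3 were at 0 in all of them. The 8 that could be tested were Prtn3, Lcn2, Hp, Wfdc21, G0s2, Slpi, Fpr1 and Fpr2. Several of these are not particular to neutrophils, since Hp and Lcn2 are secreted by hepatocytes and G0s2 is a lipolysis inhibitor of fat-storing cells. Hp, the gene of haptoglobin, had 99763 ± 22895 normalized counts (SD, n = 16).

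Prtn3, the gene of proteinase 3 of the primary granules, lies 3072 bases upstream of Elane and was above the floor in every NCD-fed mouse. It had 20.5, 22.2, 100.4 and 37.5 normalized counts in NCD-fed WT mice and 3.32, 5.07, 2.86, 1.78 and 1.63 in SSD-fed WT mice. It had 13.8, 19.9, 28.6 and 6.15 in NCD-fed Klrk1-/- mice and 1.93, 0 and 0 in SSD-fed Klrk1-/- mice. The diet groups did not overlap in either genotype. Prtn3 was called lower on SSD in WT mice (adjusted p = 4.32e-04) and in Klrk1-/- mice (adjusted p = 0.00189). It passed the minimum mean only through the NCD-fed mice, so that it was tested at all depends on the diet where it is high. At the floor were 3 of the 5 SSD-fed WT mice and all 3 SSD-fed Klrk1-/- mice. The fitted log2 fold changes of Prtn3, -3.32 and -3.48, therefore depend on the added 1 and give no firm size of the fall. Both calls were also made by edgeR and DESeq2. These were run on genes kept by the same minimum mean and add no separate support. After scaling to the same total Prtn3 was under the minimum mean in Klrk1-/- mice and was not tested there. Elane, its neighbour, had a log2 fold change on SSD of 0.24 in WT mice (interval -1.05 to 1.53) and of -0.75 in Klrk1-/- mice (interval -2.005 to 0.50), both fitted without a minimum. An antisense gene, Plppr3, overlaps Prtn3 and shares 5.59% of its 100-base windows.

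Lcn2, the gene of lipocalin 2, rose on SSD in WT mice (log2 fold change 2.46, adjusted p = 0.0122) and was lower in Klrk1-/- than in WT mice on SSD (log2 fold change -2.76, adjusted p = 0.0430). It had 3650 normalized counts in SSD-fed WT mouse 1 and 366.0 to 822.9 in the other SSD-fed WT mice, against 93.2 to 124.6 in SSD-fed Klrk1-/- mice. Without mouse 1 the log2 fold changes were 1.89 (adjusted p = 0.00630) and -2.20 (adjusted p = 6.38e-04). edgeR and quantile normalization did not call the genotype difference (adjusted p = 0.0632 and 0.0612). Slpi, the gene of an inhibitor of neutrophil elastase that epithelia also secrete, was lower in Klrk1-/- mice on NCD (log2 fold change -1.36, adjusted p = 0.00253) and on SSD (log2 fold change -2.32, adjusted p = 0.0278), without overlap on either diet. Wfdc21 fell on SSD in WT mice (log2 fold change -1.51, adjusted p = 0.00217), and G0s2 rose on SSD in WT (1.18, adjusted p = 0.0217) and in Klrk1-/- mice (1.28, adjusted p = 5.31e-04).

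Of all genes tested, 6.11% were called higher on SSD in WT mice, 4.83% without mouse 1 and 12.9% with equal totals. Of 8 testable genes of granulocyte development, 2 were called higher, Spi1, which encodes PU.1 (log2 fold change 1.07), and Runx1 (1.59), and 3 were with equal totals. Without mouse 1 neither passed, with Spi1 at 0.84 (adjusted p = 0.0200, under the fold limit) and Runx1 at 1.35 (adjusted p = 0.0546). Csf3, the gene of the ligand of Csf3r, had 0 to 1.24 normalized counts in any mouse. Of 15 testable genes of neutrophil recruitment, 2 were called higher on SSD in WT mice, the integrin chain gene Itgb2 (log2 fold change 1.40) and the selectin ligand gene Selplg (1.19), against 5 with equal totals. Without mouse 1 Itgb2 was called, and Selplg, at 0.94 (adjusted p = 0.00155), was under the fold limit. The neutrophil chemokine gene Cxcl1 fell on SSD in Klrk1-/- mice (log2 fold change -1.57, adjusted p = 5.61e-05). In WT mice its log2 fold change on SSD was -1.45 by limma (interval -3.22 to 0.31, adjusted p = 0.182), and the interaction term was -0.11 (adjusted p = 0.967). For the WT diet edgeR called 3 of the 15 recruitment genes higher and 1 lower, and DESeq2 4 and 1. Of all genes, 2.93% and 2.91% were called lower by these tools. By limma only Cxcl1 and Ltb4r1 (-0.33) had a negative log2 fold change there. Cxcl1 ranged from 65.4 to 1856 normalized counts in NCD-fed WT mice. Between genotypes on SSD none of the 15 recruitment genes was called by the main limma fit or by edgeR. DESeq2 called 3 lower in Klrk1-/- mice, beside 2.54% of all genes. By limma 1 was called lower with equal totals (beside 1.30% of all genes). Without mouse 1 it was 1 of 14 (beside 1.34%). Of the 15, 8 were lower and 1 was higher without overlap, as were 1146 and 1206 of all 13116 genes tested. Among the 8 lower genes were Cxcl1 (log2 fold change -1.55, adjusted p = 0.0699) and Cxcl2 (-2.27, adjusted p = 0.0522). Its partner Cxcl3 and Il17a were at 0 in all 16 mice.

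Monocytes and macrophages also transcribe S100a8, S100a9, Csf3r and Mmp9, so their own markers are given beside these genes. Of 12 monocyte and macrophage genes, 6 were called higher on SSD in WT mice (Cd68, Gpnmb, Ccr2, Trem2, Clec7a and Ly6c2). The 12 had a median log2 fold change of 1.16, beside -0.0015 over all genes tested. S100a8, S100a9 and Csf3r were at -0.65, -0.57 and 0.57, and none of these was called. DESeq2 also called 6 of the 12, beside 6.96% of all genes, but gave no adjusted p for Gpnmb and Trem2. The list was written with earlier results of these data known, so its counts are a description. Without mouse 1, 5 of the 12 were called higher, and with equal totals 9 were, beside the same shares of all genes (6.11%, 4.83% and 12.9%). The summed level of these 12 genes ranged from 1278 to 1693 normalized counts in NCD-fed WT mice, 2204 to 7159 in SSD-fed WT mice, 1261 to 1514 in NCD-fed Klrk1-/- mice and 1619 to 2033 in SSD-fed Klrk1-/- mice, so the diet groups did not overlap in either genotype, whereas those of the summed neutrophil genes did in both. In Klrk1-/- mice 2 of the 12 were called higher on SSD (Gpnmb and Trem2), beside 2.53% of all genes. Between genotypes on SSD, Cd68 was called lower in Klrk1-/- mice (log2 fold change -1.36, adjusted p = 0.0135), and its interaction term was -1.57 (adjusted p = 0.0107). On SSD, 1 of the 12 was called lower in Klrk1-/- mice beside 0.968% of all genes, and 4 were beside 1.34% without mouse 1. Of 10 oxidase and shared phagocyte genes, Cyba was called higher on SSD in WT mice (log2 fold change 1.01), and all 10 were with equal totals. Without mouse 1 Cyba was 0.73 (adjusted p = 0.00313), under the fold limit. The part of these cells in the values of the 4 shared neutrophil genes was not tested.

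Markers of the remaining cell types moved as follows. Of 5 Kupffer cell genes, Marco was called higher on SSD in WT mice (log2 fold change 1.05, beside 6.11% of all genes called higher) and lower in Klrk1-/- than WT mice on SSD (-2.45, beside 0.968% called lower). With quantile normalization Marco was at 0.95 for the WT diet (adjusted p = 0.0381) and no longer called, and Spi1, Runx1, Selplg, Cyba and Ly6c2 also lost their WT diet calls. Cd163, another Kupffer cell gene, had log2 fold changes of -0.24 and 1.04 in these comparisons (adjusted p = 0.626 and 0.174). Of the B cell genes, Ighm was called lower on SSD in both genotypes (log2 fold change -1.98 in WT and -3.59 in Klrk1-/- mice, beside 2.90% and 2.92% of all genes called lower), with an interaction term of -1.61 (0.436% called lower). It was called higher in Klrk1-/- mice on NCD (1.34, beside 0.849% called higher). None of the red cell, platelet, T and NK cell or hepatocyte genes tested was called by limma in any comparison. None of the 8 eosinophil, basophil and mast cell genes reached the minimum mean, and Epx and Prg3 were at 0 in all mice. The highest gene of each list had a mean of 5923 (Cebpa, granulocyte development), 535.2 (Il17rc, recruitment), 3944 (Wfdc21, mature neutrophil), 1420 (Lyz2, shared phagocyte), 989.8 (Csf1r, monocyte and macrophage), 2160 (Clec4f, Kupffer cell), 2709 (Alas2, red cell), 116.2 (Itga2b, platelet), 17.1 (Nkg7, T and NK cell), 710.7 (Ighm, B cell), 3.52 (Ccr3, eosinophil, basophil and mast cell) and 1564900 (Alb, hepatocyte) normalized counts over the 16 mice.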

How the data were processed

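Whole-liver RNA of 16 mice was sequenced as single reads of 100 bases, and groups were taken from the labels. The labels number the libraries but do not say that each is a separate mouse. This is taken from the numbers and the paper. The labels name an mRNA library kit and the methods a total RNA kit. Per the submitters' notes and methods, reads were checked with FastQC, aligned to GRCm39 with STAR and counted per gene with FeatureCounts on GENCODE M26. Whether counting used strand is not given in the sources used here. The authors deposited a normalized count per gene and library, a signal equal to the count divided by 1 factor per library, and the sources used here do not say how the factors were computed. The deposited table also holds the fraction of G and C bases and the length of each gene, and the length was used for levels per kilobase. The authors' comparisons were not used. A result for a gene of the B cell list is not reported here.

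Dividing by the smallest step of each library gave whole reads for 100% of the values (tolerance 0.01). The members and gene lists were chosen with earlier results of these data known. Genes named are the 10 members, of every other list the genes called in any comparison and the gene with the highest mean, and the 3 genes most like each member with a mean of at least 10. Prtn3, Lcn2 and Slpi were given by mouse after their values were seen, and Cxcr2, Cxcl2, Cd163, Csf3, Fpr1 and Fpr2, the second chemokine Cxcl3 and the genes at 0 were also named then.

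The main test was limma 3.58.1 (trend) run under R 4.3.3. Values entered as log2(normalized count + 1), each model held just the groups being compared, with a minimum mean of 10, Benjamini-Hochberg adjustment over all genes tested and calls at an adjusted p under 0.05 and a fold above 2. It is two-sided. The test was checked on simulated data. Alternatives were edgeR 4.0.16 (quasi-likelihood, TMM) and DESeq2 1.42.0 on the recovered reads, 0.5 or 10 in place of the added 1, a minimum mean of 0 or 50, equal totals, quantile normalization, a block for the replicate number, a joint model of the 4 groups, fold limits of 1.5 and 1, each mouse left out in turn and, added after seeing the data, the mice of the block fits without the block and the list counts under some of these settings. Replicate pairs differed by more than sampling noise (chi-square per gene 13.5 to 95.6 over 25 pairs). Nothing in the labels ties mice of different groups to each other, and p-values measure the spread between these libraries.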

Additional observations from a re-analysis of the deposited data

Results flagged for a closer look

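In groups of 4 or 5 mice, 5 of 27 sets of values held a mouse that lay far from the others by Dixon's criterion, where chance gives about 1 in 20 for values spread like a normal sample. S100a8 had 49.2 normalized counts in SSD-fed WT mouse 1, against a median of 13.4 in the other 4. In the same mouse Mmp9 had 13.3 normalized counts (median of the others 5.22) and Ngp had 4.65 (7 reads, median of the others 0.444). Ngp had 11.7 normalized counts (9 reads) in NCD-fed WT mouse 3, where the other 3 mice had none. Mpo had 1.30 normalized counts in that mouse, which is 1 read, and the others had none. Where all others are at 0, any single read meets the criterion, so the rate of 1 in 20 does not apply to these 2 values. Of the 5 values, 3 thus come from SSD-fed WT mouse 1 and 2 from NCD-fed WT mouse 3, which also had the most Prtn3 of all mice (100.4 normalized counts).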

How the results depend on the processing

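No neutrophil gene was called in any of the 117 fits over the 5 comparisons and their settings, in which 1 to 9 of the 10 genes were tested and up to 2 had an unadjusted p under 0.05. Of 296 alternative values of S100a8, S100a9 and Csf3r, 288 kept their direction and stayed uncalled, and 8 changed sign, all with an adjusted p of at least 0.510. Apart from the block, the cause was not tested. Scaling to equal totals turned Csf3r for SSD against NCD in Klrk1-/- mice to 0.15. Leaving out mice turned Csf3r for Klrk1-/- against WT on NCD to -0.061 (range -0.061 to 0.29 with 1 mouse left out) and S100a9 there to 0.16 (range -0.49 to 0.16 over all settings). For SSD against NCD in Klrk1-/- mice it turned S100a9 to -0.23, -0.011 and -0.012 (without NCD-fed mouse 1, SSD-fed mouse 1 and SSD-fed mouse 3), and the highest value with a mouse left out was 0.55. Other values kept their sign but moved in size over the settings. S100a8 ranged from 0.044 to 0.65 for the Klrk1-/- diet and from -1.06 to -0.45 for the genotype on NCD. The interaction ranged from 0.64 to 1.36 for S100a8, 0.33 to 1.12 for S100a9 and -0.89 to -0.47 for Csf3r.

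The fits with the replicate number as a block hold only mice whose number occurs in every group compared. With the block, S100a8 for Klrk1-/- against WT on SSD was -0.17 (adjusted p = 0.838). A fit of the same mice without the block, added after seeing the data, gave the same -0.17 (adjusted p = 0.866), so this change of sign goes with the mice left out. Same-numbered mice of 2 groups had correlations of their deviations of -0.133 to 0.246. Differently numbered mice were not set beside them, so whether same-numbered mice share more than a number was not tested. Over all genes, the calls for the WT diet were 1179 with all mice, 1095 with the matched mice and 981 with the block. They were 151, 226 and 332 for the genotype on SSD, 219, 267 and 278 for the genotype on NCD, 704, 708 and 724 for the Klrk1-/- diet and 70, 65 and 45 for the interaction.

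Counts over all genes that moved by over 1.5 times were as follows. For the WT diet, 1179 became 1940 with equal totals and 749 at a minimum mean of 50. For the genotype on SSD, 151 became 365 with DESeq2, 293 with all 4 groups in 1 model, 96 at a pseudocount of 10, 85 at a minimum of 50 and 35 to 251 with 1 mouse left out (lowest without Klrk1-/- mouse 1, highest without WT mouse 5). For the genotype on NCD, leaving out 1 mouse gave 132 (without Klrk1-/- mouse 3) to 258 from 219. For the Klrk1-/- diet, a minimum of 50 gave 469 from 704. For the interaction, 70 became 196 with DESeq2 and 28 (without SSD-fed Klrk1-/- mouse 3) to 130 (without SSD-fed WT mouse 5) with 1 mouse left out. A fold limit of 1.5 or none gave 2522 and 4568, 279 and 381, 744 and 1679, 1696 and 3790, and 111 and 115. Equal totals shifted the median of all genes by 0.34 for the WT diet, 0.25 for the Klrk1-/- diet and -0.12 for the genotype on SSD, and the higher and lower calls from 800 and 379 to 1692 and 248 and from 327 and 377 to 680 and 270. Quantile normalization gave 537 and 456 for the WT diet. The depth limits Mpo, Camp, Ngp, Elane and Retnlg, which had 15 to 51 reads over 16 mice.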
